A study of Frankliniella occidentalis and Frankliniella intonsa with 9 samples.

Results

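Insect hemolymph, the circulating fluid that also fills the antenna, carries lipid, iron and stored amino acids on a small set of abundant proteins. Apolipophorins are the protein part of lipophorin, the particle that shuttles lipid between fat body, gut and the tissues that burn or deposit it. Hexamerins are storage proteins of the hemocyanin superfamily, made mainly by larval fat body and used as an amino acid reserve. Ferritins store iron inside a shell of heavy and light chains. Unlike the ferritin of vertebrate cytosol, much of insect ferritin is secreted and found in hemolymph. Melanotransferrin is a transferrin family member attached to the cell surface, and in Drosophila it is needed for the junctions between epithelial cells.

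Transcripts of these proteins were examined in antennae of thrips aged 1 day as adults. RNA-seq was available for 3 libraries of females and 3 of males of the western flower thrips, Frankliniella occidentalis, and for 3 of females of Frankliniella intonsa, 9 in all. No treatment or genotype was recorded for any group, and male F. intonsa were not analysed here. Each value is a TPM, the share of a library's transcripts that a gene takes after scaling by length, from 1 assembly shared by both species.

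Genes were taken where their annotation names an apolipophorin, lipophorin, hexamerin, arylphorin, transferrin or ferritin, but no receptor or vitellogenin. Of 48889 assembled genes, 32 matched. In 7 of these the only matching letters were those of "acetyl-transferring" in the names of enzymes of the pyruvate dehydrogenase complex. The remaining 25 carried 6 protein names: apolipophorin (8 genes), hexamerin (2), melanotransferrin (2), ferritin light chain (5), ferritin heavy chain (2) and other ferritins (6). No assembled gene was annotated as arylphorin or apolipophorin-III. The only transferrin named by the main annotation was melanotransferrin, and its gene TRINITY_DN46323_c0_g4 has ovotransferrin of a duck as Swiss-Prot match. These names are the annotation's: both genes named ferritin heavy chain match non-insect sequences, and the insect-matched homologue of the heavy chain stands under other ferritins as a secreted subunit. Several assembled genes of 1 protein can be variants or pieces of the same transcript. TPM was summed per protein name, which suits variants but counts a transcript in pieces more than once. Which of these holds was not tested, so each assembled gene is given where it matters.

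The F. intonsa libraries stood apart from the others and from each other. Of each library's TPM, annotated genes took 70.9% to 76.8% in F. occidentalis, but 15.1%, 55.7% and 7.76% in F. intonsa libraries 1, 2 and 3. Markers of antennal chemosensory tissue (36 genes: olfactory coreceptor, odorant-binding, chemosensory and sensory neuron membrane proteins) summed to 7791 to 11097 TPM in F. occidentalis. In F. intonsa they summed to 191 TPM in the lowest library, 1292 in the median one and 9624 in the highest. The olfactory coreceptor, which defines the tissue, was at 9.16 to 23.3 TPM in F. occidentalis, at 18.4 TPM in F. intonsa library 2, at 0.08 TPM in library 1 and listed at 0 in library 3. Results on F. intonsa are therefore given by library.

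Ferritins made up nearly all of the signal of the 6 proteins. As a share of library TPM, the 6 proteins together took 0.136% ± 0.0136 (SD, n = 3) among F. occidentalis females and 0.128% ± 0.0313 (SD, n = 3) among males. Ferritins accounted for 97.1% ± 0.823 (SD, n = 3) of that signal for females and 97.6% ± 1.38 (SD, n = 3) for males. Over the 6 F. occidentalis libraries the ferritin light chain averaged 784 TPM, other ferritins 437 TPM, apolipophorin 23.8 TPM, hexamerin 4.70 TPM, melanotransferrin 3.94 TPM and the non-insect-matched genes named ferritin heavy chain 0.348 TPM. The summed ranges of the ferritin light chain, other ferritins and apolipophorin did not meet (599 to 986, 356 to 534 and 13.4 to 32.7 TPM). The order of the ferritins rests on these sums, which can count a transcript in pieces more than once. Hexamerin (1.15 to 10.8 TPM) and melanotransferrin (1.86 to 6.15 TPM) overlapped and could not be ordered. The spread relative to the mean was smallest for other ferritins, with a coefficient of variation of 13.7%, and 20.2% for the light chain. It was 32.0% for apolipophorin, 35.4% for melanotransferrin and 88.8% for hexamerin (n = 6 libraries).

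**Figure D1:**
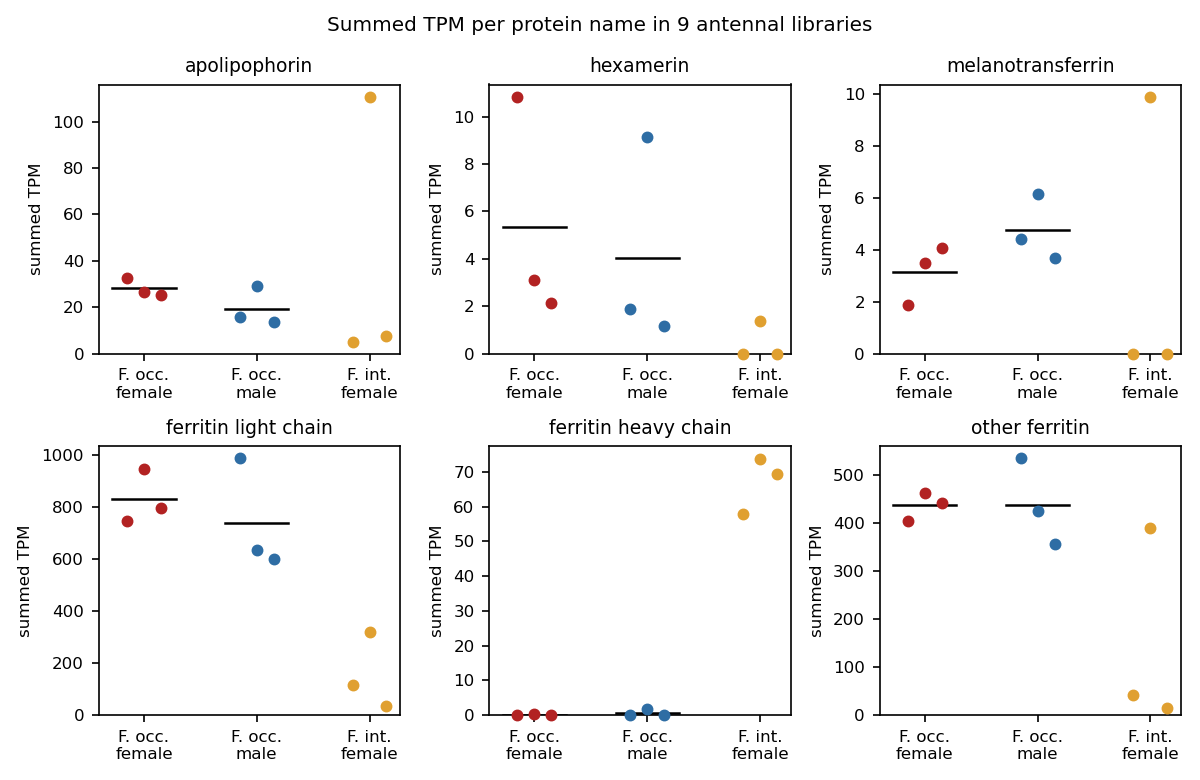
Summed TPM per protein name in each of 9 antennal libraries (points; vertical axis in TPM, starting at 0). Horizontal lines are means of 3 F. occidentalis libraries; no mean is drawn for F. intonsa. Male and female points overlap in every panel, while F. intonsa libraries 1 and 3 lie far below library 2 for apolipophorin and other ferritins.

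The first comparison asks whether the antennae of male and female F. occidentalis differ in these transcripts. None of the proteins was called different. Of the 25 genes, 12 passed the filter of at least 1 TPM in at least 3 of the 6 libraries. With limma-trend on log2(TPM + 1) and an adjusted p threshold of 0.05, 0 of these 12 were called, and 3 had an unadjusted p under 0.05, which 15.5% of all tested genes had. Over all 22015 tested genes, 1.89% were called. Of them 0.968% were called higher and 0.918% lower in males (213 and 202 genes, or 65 and 142 after quantile normalization), so 0 of 12 cannot be told from the background. The same shares held in the table with proteins summed, where 0 of 5 tested sums were called. The sexes' libraries did not overlap for 2 of the 12 genes, 1 lower and 1 higher in males, against 20.1% of all tested genes (6.83% lower and 13.3% higher). The median log2 fold change of the 12, male minus female, was −0.37, beside 0.19 over all tested genes.

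Apolipophorin, the lipid carrier, was at 32.7, 26.7 and 25.2 TPM in females 1, 2 and 3 and at 15.8, 29.0 and 13.4 TPM in males 1, 2 and 3. Males 1 and 3 were below every female, but male 2 was above 2 of the females, so the sexes overlapped. The log2 fold change was −0.58 ± 0.34 (SE, n = 3 per sex; 95% interval −1.36 to 0.19; limma-trend adjusted p = 0.474), and the exact two-sided permutation p of the sums was 0.3, where 0.1 is the smallest that 3 against 3 allow. On the scale of TPM + 1 the interval spans male-to-female ratios of 0.39 to 1.14.

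Most of the apolipophorin signal in F. occidentalis came from 2 genes of 1 assembly component. TRINITY_DN46120_c1_g5 (listed length 5332), annotated with a von Willebrand factor type D domain, was at 14.6, 11.8 and 14.8 TPM in females and 8.89, 13.4 and 6.45 TPM in males. TRINITY_DN46120_c1_g14 (listed length 528) was at 13.0, 13.8 and 9.07 TPM in females and 5.88, 12.1 and 6.98 TPM in males. Male 2 was the highest male for both. A piece with the amino-terminal lipid-binding domain shared with vitellogenin (TRINITY_DN39829_c0_g2) was lower, at 5.18, 1.02 and 1.25 TPM in females and 0.98, 3.54 and 0 TPM in males.

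The fat body makes apolipophorin and, in females, vitellogenin, the yolk protein precursor. The 52 genes annotated as vitellogenin summed to 10441, 12436 and 6637 TPM in females and to 70.7, 118 and 72.3 TPM in males. By these sums vitellogenin stood at 319, 466 and 264 times apolipophorin in females 1, 2 and 3, and at 4.49, 4.06 and 5.38 times in males. How far the division of transcripts into assembled genes set the size of this ratio was not tested. This ratio averaged 350 ± 105 (SD, n = 3) for females against 4.65 ± 0.675 (SD, n = 3) for males and did not overlap (p = 0.1 in the exact permutation test, two-sided, again its minimum). The ratio was chosen after values were seen, so the p is a description only. Of the fat body marker list (55 genes, nearly all of them vitellogenins), 35 of 42 tested were called lower in males with limma-trend and 0 higher. Over all tested genes 0.918% were called lower and 0.968% higher in males. The list summed to 6659 to 12470 TPM in females and 80.4 to 135 TPM in males. Whether fat body carried with the antennae had a part in the apolipophorin values was not tested. In bulk samples fewer cells of a type and less RNA per cell cannot be told apart.

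**Figure D2:**
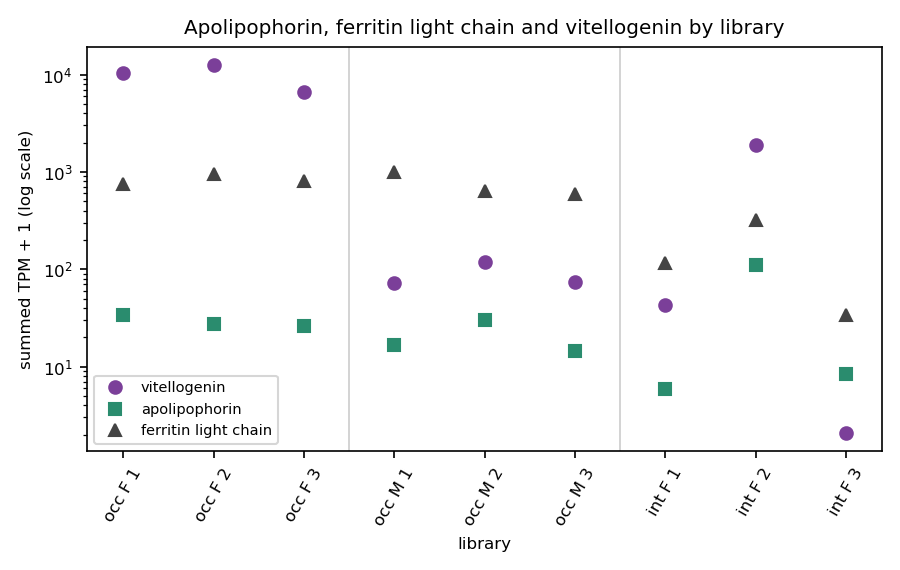
Summed TPM + 1 (log axis) of vitellogenin, apolipophorin and ferritin light chain in each library of F. occidentalis females (occ F), males (occ M) and F. intonsa females (int F). Vitellogenin is at 6637 or more TPM in every F. occidentalis female and at most 118 TPM in the males, while apolipophorin and ferritin light chain of the sexes overlap.

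Hexamerin varied more between libraries of the same sex than between the sexes. Its sum was 10.8, 3.11 and 2.12 TPM in females and 1.86, 9.15 and 1.15 TPM in males. Female 1 and male 2 were high, and the other 4 libraries were at or below 3.11 TPM. Between the sexes the log2 fold change was −0.43 ± 0.70 (SE, n = 3 per sex; 95% interval −2.00 to 1.15; limma-trend adjusted p = 0.835), and it changed sign without female library 1 (0.15) or male library 3 (0.015). Both genes are of 1 component: TRINITY_DN39716_c0_g3 (listed length 1800, middle hemocyanin domain) ranged from 0.24 to 5.25 TPM and TRINITY_DN39716_c0_g2 (listed length 797, carboxy-terminal hemocyanin domain) from 0.77 to 5.61 TPM over the 6 libraries. The apolipophorin piece TRINITY_DN39829_c0_g2 was likewise highest in female 1 and male 2.

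Melanotransferrin, found in F. occidentalis as a single gene (TRINITY_DN46323_c0_g4, listed length 4214), was at 1.86, 3.47 and 4.08 TPM in females and 4.40, 6.15 and 3.67 TPM in males. Males 1 and 2 were above every female and male 3 was not. Its log2 fold change was 0.49 ± 0.40 (SE, n = 3 per sex; 95% interval −0.42 to 1.41; limma-trend adjusted p = 0.629).

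Ferritin light chain transcripts, at 744, 947 and 797 TPM in females and 986, 634 and 599 TPM in males, came from 1 component annotated as an oocyte isoform. Male 1 was above every female and males 2 and 3 below every female. For the sum, the log2 fold change was −0.19 ± 0.28 (SE, n = 3 per sex; 95% interval −0.84 to 0.45; limma-trend adjusted p = 0.811), and 0.054 after quantile normalization. In all tested genes that normalization moved the median log2 fold change from 0.19 to −0.02. On the scale of TPM + 1 the interval spans ratios from 0.56 to 1.36.

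The other ferritins were dominated by a secreted subunit (component TRINITY_DN41922_c0), whose Swiss-Prot match is FERH, the heavy chain homologue of the mosquito Aedes aegypti. Their sum was 404, 463 and 441 TPM in females and 534, 424 and 356 TPM in males. The female libraries lay inside the range of the male ones. Their log2 fold change was −0.01 ± 0.26 (SE, n = 3 per sex; 95% interval −0.59 to 0.57; limma-trend adjusted p = 0.990), and 0.22 after quantile normalization. The interval spans ratios from 0.66 to 1.48 of TPM + 1.

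TPM is scaled by length, so the component sums can be set against each other where their genes are variants. Where genes are pieces of 1 transcript, a sum counts it more than once. Which of these holds was not tested, so the ratio is one of sums. The secreted subunit component stood at 0.542, 0.485 and 0.550 times the light chain component in females, and at 0.527, 0.659 and 0.570 times in males. The sexes overlapped (p = 0.3 in the exact permutation test, two-sided), and in all 6 libraries the light chain sum was the higher of the pair.

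**Figure D3:**
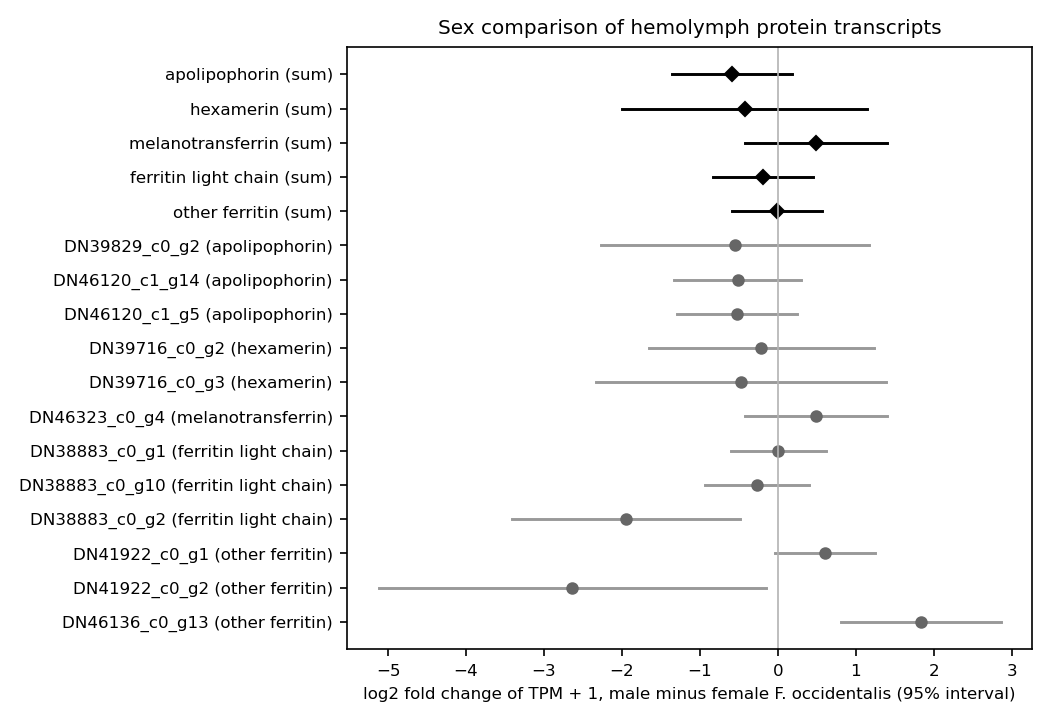
Log2 fold change of TPM + 1, male minus female F. occidentalis, with 95% intervals from limma-trend. Diamonds are protein sums and circles single assembled genes; all 5 sums have intervals that include 0, and 3 single genes (DN38883_c0_g2, DN41922_c0_g2 and DN46136_c0_g13) have unadjusted intervals that exclude 0 without passing the adjusted threshold.

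Within the ferritin components, the division of TPM between single genes differed from library to library while the sums of the sexes overlapped. TRINITY_DN41922_c0_g1 was at 196, 219 and 292 TPM in females and 392, 415 and 274 TPM in males. Its partner TRINITY_DN41922_c0_g2 was at 207, 241 and 146 TPM in females and 127, 2.47 and 67.6 TPM in males. The first gene therefore held 48.7%, 47.6% and 66.7% of the component in females and 75.5%, 99.4% and 80.2% in males. This share averaged 54.3% ± 10.7 (SD, n = 3) for females against 85.0% ± 12.7 (SD, n = 3) for males and did not overlap (p = 0.1 in the exact permutation test, two-sided). Ratios between genes, such as this share, were chosen after values were seen, so the p is a description only. Of all tested genes 20.1% did not overlap between the sexes. Neither gene was called on its own: the log2 fold changes were 0.61 ± 0.28 (limma-trend adjusted p = 0.347) and −2.64 ± 1.10 (adjusted p = 0.295; SE, n = 3 per sex). The second was −1.05 without male library 2, where that gene was nearly gone.

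In the light chain component 1 minor gene varied in a like way. TRINITY_DN38883_c0_g10 (382.6 to 485 TPM in females, 291 to 506 TPM in males) and TRINITY_DN38883_c0_g1 (288 to 397 and 297 to 441 TPM) held most of the component. TRINITY_DN38883_c0_g2 was at 49.8, 64.9 and 34.7 TPM in females and 39.9, 4.64 and 8.10 TPM in males. Its share of the component was 6.69%, 6.85% and 4.35% in females and 4.04%, 0.732% and 1.35% in males. The sexes did not overlap in this share (exact two-sided permutation p = 0.1), which was likewise chosen after values were seen. For this gene the log2 fold change was −1.94 ± 0.65 (SE, n = 3 per sex; limma-trend adjusted p = 0.183). It was −2.78 without male library 1, the male inside the female range, where the limma-trend adjusted p was 0.0288. Leaving out any other library gave −2.18 to −1.35, with limma-trend adjusted p of 0.255 to 0.445. Both of these minor or partner genes, TRINITY_DN41922_c0_g2 and TRINITY_DN38883_c0_g2, were lowest in male 2 among the F. occidentalis libraries and above 0 in all 3 F. intonsa libraries. Genes of a component share sequence, so the division of reads between them is less certain than their sum.

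**Figure D4:**
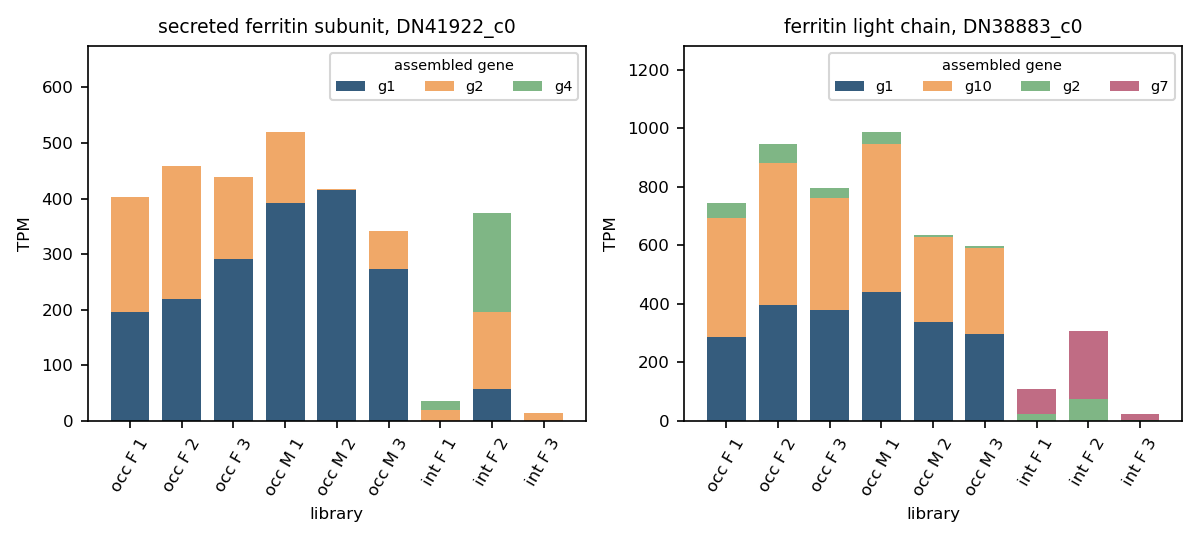
Stacked bars of TPM for the assembled genes of the secreted ferritin subunit component (left) and the ferritin light chain component (right) in each library; occ F and occ M are F. occidentalis females and males and int F is F. intonsa females. In the left panel g1 takes 75.5% or more of the bar in males and at most 66.7% in females; g4 (left) and g7 (right) appear in F. intonsa alone.

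Among single genes the one with the lowest adjusted p was a soma ferritin-like gene, TRINITY_DN46136_c0_g13 (listed length 567). It was at 1.09, 3.28 and 3.0 TPM in females and 14.1, 6.13 and 14.2 TPM in males. Every male was above every female. Its log2 fold change was 1.84 ± 0.45 (SE, n = 3 per sex; 95% interval 0.81 to 2.86), with a limma-trend adjusted p of 0.0830 that missed the threshold, and unadjusted p = 0.00284. Its annotation match is a spider and its Swiss-Prot match a fluke, and whether it is a thrips transcript was not tested.

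Other genes of lipid transport, iron handling and the hemocyanin superfamily were taken by annotation wording. Of 19 tested genes of hemolymph lipid transport and storage (lipoprotein receptors, lipid droplet and fatty acid-binding proteins, adipokinetic hormone), 0 were called between the sexes with limma-trend and 5 had an unadjusted p under 0.05, beside 15.5% of all tested genes. Their median log2 fold change was 0.07. Of 19 iron handling genes 0 were called, 1 had an unadjusted p under 0.05, and the median was −0.11. Malvolio, a metal ion transporter of the NRAMP family (TRINITY_DN44035_c0_g2), averaged 27.4 ± 7.60 TPM (SD, n = 3) for females against 25.0 ± 6.46 TPM (SD, n = 3) for males (limma-trend adjusted p = 0.915). Of 6 hemocyanin superfamily genes, all annotated as phenoloxidases (enzymes of melanization), 0 were called and 0 had an unadjusted p under 0.05. Their median was −0.02, beside 0.19 over all tested genes.

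Markers of other cell types that antennae or attached tissue could hold gave these sums in F. occidentalis. Hemocyte markers (24 genes, 16 tested, 0 called, 3 with an unadjusted p under 0.05) summed to 191 to 213 TPM in females and 209 to 270 TPM in males, with 14 of the genes being phenoloxidases also held by the hemocyanin list and no gene annotated as hemolectin, hemocytin or nimrod. Muscle markers (42 tested, 0 called, 7 with an unadjusted p under 0.05) summed to 23439 to 35118 TPM in females and 14682 to 26084 TPM in males. Neuron markers (14 tested, 0 called, 3 with an unadjusted p under 0.05) summed to 70.6 to 99.3 TPM in females and 114 to 205 TPM in males. Ovary markers (6 tested, 0 called, 0 with an unadjusted p under 0.05) summed to 26.6 to 37.8 TPM in females and 38.9 to 47.7 TPM in males. The most abundant genes of the ovary list were annotated as chorion peroxidase or as hypothetical proteins, and whether they mark ovary was not tested. For neuron and ovary markers every male sum was above every female sum. Of all tested genes, 13.3% had every male above every female. Beside the counts of these lists, 1.89% of all tested genes were called and 15.5% had an unadjusted p under 0.05. The part of these tissues in the hemolymph protein values was not tested.

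The genes whose pattern over the 6 F. occidentalis libraries was most like each of the 3 abundant sums were named among 4382 annotated genes with a mean of at least 10 TPM. These correlations are a description over 6 points that share libraries and their depth. For apolipophorin they were a prosaposin-like gene (TRINITY_DN53315_c0_g1, Pearson r = 0.935; prosaposin is a precursor of lysosomal lipid-binding proteins), a subunit of the translocon-associated protein complex (TRINITY_DN40914_c0_g4, r = 0.931) and a glucosamine 6-phosphate N-acetyltransferase (TRINITY_DN46823_c0_g1, r = 0.931). For ferritin light chain they were a gene without an informative name (TRINITY_DN46469_c1_g7, r = 0.998), Derlin-2 (TRINITY_DN43352_c0_g3, r = 0.988), of endoplasmic reticulum quality control, and the mitochondrial insertase OXA1L (TRINITY_DN38745_c0_g4, r = 0.988). For other ferritins they were a protein phosphatase PTC7 homolog (TRINITY_DN44222_c0_g4, r = 0.997), the translocation protein SEC62 (TRINITY_DN44567_c0_g1, r = 0.995) and a zinc finger matrin-type protein (TRINITY_DN45877_c0_g5, r = 0.992).

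The second comparison asks how the females of the species differ. Presence was counted over the 6 F. occidentalis libraries, males included, and the 3 of F. intonsa. Of the 25 genes, 6 were above 0 in F. occidentalis alone, 12 in F. intonsa alone and 7 in both. Over all 48889 assembled genes the shares were 36.9%, 42.8% and 20.3%, and among genes with a match 29.8% were above 0 in both, beside 28% of the 25. Genes above 0 in F. intonsa library 2 alone numbered 7 of the 25, or 28%, beside 17.3% of all assembled genes and 14.4% of those with a match. Of 15 tested genes 10 were called with limma-trend, 6 lower and 4 higher in F. intonsa, against 85.4% of all 21231 tested genes (68.3% lower and 17.1% higher). The species' libraries did not overlap for 11 of the 15, against 86.6% of all tested genes (69.2% lower and 17.5% higher), so neither count stands above the background. Of the 6 lower, 5 had 0 TPM listed for every F. intonsa library, and of the 4 higher, 3 were listed at 0 in all F. occidentalis females, so the fitted folds of these 8 rest on the added 1 and are not read as sizes. Within a component the species were listed partly under different genes, though TRINITY_DN38883_c0_g2, TRINITY_DN41922_c0_g1 and TRINITY_DN41922_c0_g2 were above 0 in both. The light chain genes TRINITY_DN38883_c0_g1 and TRINITY_DN38883_c0_g10 were listed at 0 in F. intonsa. There TRINITY_DN38883_c0_g7, listed at 0 in F. occidentalis, held 83.7, 233 and 20.3 TPM in libraries 1, 2 and 3. In the apolipophorin component, TRINITY_DN46120_c1_g5 and TRINITY_DN46120_c1_g14 were above 0 in F. occidentalis alone, and TRINITY_DN46120_c1_g13 was at 2.15, 46.7 and 7.40 TPM in F. intonsa libraries 1, 2 and 3 alone. Sums per protein were therefore set between the species.

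Ferritin light chain was lower in every F. intonsa library than in every F. occidentalis female, at 115, 317 and 32.8 TPM in libraries 1, 2 and 3 against 744 to 947 TPM. Between the species the log2 fold change was −2.94 ± 0.96 (SE, n = 3 per group; limma-trend adjusted p = 0.0315; p = 0.1 in the exact permutation test, two-sided). Across the whole table the median was −2.35. Quantile normalization moved it to −0.20, and under it 4538 genes were called higher and 6509 lower in place of 3625 and 14502. The call was lost without F. intonsa library 1 (adjusted p = 0.0721) and without F. occidentalis female library 1 (0.152), 2 (0.186) or 3 (0.158). It was also lost when replicate numbers were blocked (0.0682), and with TPM rescaled so that matched genes total 1000000 the log2 fold change was −0.98 (adjusted p = 0.0632). On that scale the sums were 775, 593 and 427 in F. intonsa libraries 1, 2 and 3 and 1048, 1321 and 1081 in F. occidentalis females 1, 2 and 3.

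Other ferritins were at 41.1, 390 and 15.02 TPM in F. intonsa libraries 1, 2 and 3, and at 404 to 463 TPM in F. occidentalis females. Library 2 was just below the lowest F. occidentalis female and libraries 1 and 3 far below, so the species did not overlap in TPM. Rescaled to matched genes they did overlap, at 276, 729 and 196 in F. intonsa libraries 1, 2 and 3 and 569, 646 and 598 in F. occidentalis females 1, 2 and 3 (p = 0.4 in the exact permutation test, two-sided). Their log2 fold change was −2.77 ± 1.26 (SE, n = 3 per group; limma-trend adjusted p = 0.0875), −0.82 when rescaled to matched genes (adjusted p = 0.257), and −4.07 without F. intonsa library 2, where it was called (adjusted p = 0.000672). The secreted subunit stood at 0.324, 1.21 and 0.625 times the light chain component in F. intonsa libraries 1, 2 and 3, a wider spread than the 0.485 to 0.550 times of F. occidentalis females.

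Apolipophorin was at 4.81, 111 and 7.40 TPM in F. intonsa libraries 1, 2 and 3, against 25.2 to 32.7 TPM in F. occidentalis females. In TPM library 2 was above all F. occidentalis females and the other libraries below all of them. Rescaled to matched genes, library 3 was above them too, at 96.5, with libraries 1 and 2 at 32.3 and 207 and the females at 46.1, 37.2 and 34.1. The library 2 sum added genes of listed length 1841 (46.7 TPM), 1941 (35.8 TPM), 266 (12.55 TPM) and smaller values. The most abundant F. occidentalis gene had listed length 5332. How far a different division into pieces set the sums of the species apart was not tested. The log2 fold change was −0.72 ± 1.19 (SE, n = 3 per group; 95% interval −3.72 to 2.28; limma-trend adjusted p = 0.594). It was −2.05 without library 2, where it was called (adjusted p = 0.000748), 0.079 without library 1, 0.66 after quantile normalization and 1.14 when rescaled to matched genes (adjusted p = 0.223). Vitellogenin was also highest in library 2, at 1884 TPM beside 42.4 and 1.09 TPM in libraries 1 and 3.

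Hexamerin was listed at 0 in F. intonsa libraries 1 and 3 and was at 1.39 TPM in library 2, against 2.12 to 10.8 TPM in F. occidentalis females. It passed the filter of 1 TPM in 3 libraries through the F. occidentalis females, the group where it was high. The log2 fold change was −2.00 ± 0.63 (SE, n = 3 per group; limma-trend adjusted p = 0.0278). Its size rests on the added value, and was −4.12 with 0.1 added in place of 1. The call was lost without F. intonsa library 1 (adjusted p = 0.0772) or 3 (0.0714), and without F. occidentalis female library 1 (0.117), 2 (0.0668) or 3 (0.0510). After quantile normalization the log2 fold change was −0.073 (adjusted p = 0.904). Melanotransferrin was at 9.86 TPM in F. intonsa library 2, on a short piece (TRINITY_DN46323_c0_g5, listed length 215), and listed at 0 in libraries 1 and 3. Its log2 fold change was −0.86 ± 1.02 (SE, n = 3 per group; limma-trend adjusted p = 0.461). Without library 2 both remaining F. intonsa libraries were listed at 0, and no fold is read from that fit.

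The genes named ferritin heavy chain, none with an insect match, were called higher in F. intonsa. Their sum was at 57.9, 73.8 and 69.3 TPM in F. intonsa libraries 1, 2 and 3, and at 0, 0.34 and 0 TPM in F. occidentalis females. The groups did not overlap, and the sum passed the filter through F. intonsa alone. Its fitted log2 fold change (5.94, limma-trend adjusted p = 9.69e-06) rests on the added 1: it was 8.67 with 0.1 added and 8.33 when rescaled to matched genes, and leaving out any 1 F. intonsa library left it untested. Nearly all of it was TRINITY_DN37629_c0_g2, matched to human FTH1 and, in Swiss-Prot, to a marsupial. The other gene, matched to a mite, was at 5.55 TPM in library 2 alone. A ferritin light chain gene matched to a whale (TRINITY_DN34609_c0_g1) was at 6.58, 9.02 and 8.74 TPM in F. intonsa libraries 1, 2 and 3, and it was listed at 0 in all F. occidentalis libraries. How level the F. intonsa libraries were depended on the scale: the heavy chain sum spanned 57.9 to 73.8 in TPM, but was 389, 138 and 904 in libraries 1, 2 and 3 when rescaled to matched genes. All genes whose annotation match is human or pig summed to 2680, 2805 and 3432 TPM in F. intonsa, and to 522 to 1899 TPM in F. occidentalis females and 735 to 2989 TPM in males. Their part in the ferritin values was not tested. A pair of genes annotated as bacterioferritin, a bacterial iron store, matched a bacterium and a beetle; they were at 5.49 and 8.11 TPM in F. intonsa library 2 and listed at 0 in the other 8 libraries.

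The 7 genes that matched through "acetyl-transferring" belong to pyruvate dehydrogenase kinase, which switches off the entry of pyruvate into the citric acid cycle, and pyruvate dehydrogenase phosphatase, which switches it back on. The kinase was at 11.2, 17.8 and 18.4 TPM in F. occidentalis females and 17.6, 10.7 and 13.3 TPM in males (limma-trend adjusted p = 0.867). The phosphatase was at 17.8, 23.0 and 25.9 TPM in females and 24.2, 16.6 and 11.6 TPM in males (adjusted p = 0.668). Both overlapped between the sexes.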

How the data were processed

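RNA was measured in antennae by RNA-seq of cDNA made from low input by SMARTer template switching and PCR, per the labels' protocols. The submitters' processing notes name cutadapt, FastQC and Salmon. Which assembler and which annotation release were used is not given in the sources used here. A single table of TPM was deposited. The unit is not written there and was inferred from column totals of 935518 to 987791 and from Salmon. The smallest row maximum was 5.01 TPM, so genes low in every library are absent. Read depth is unknown, so no counting interval or detection floor is given. The listed length, deposited as other annotation, has no stated unit. Each value column carries a sample's title, and 0 had no sample. Labels do not say whether replicates are separate insects or pools, so p-values cover only the variation among these libraries, which may be technical.

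TPM was summed per protein name, and limma-trend (limma 3.58.1, R 4.3.3) was fitted to log2(TPM + 1) over the whole table, for genes reaching 1 TPM in 3 or more of the compared libraries, with Benjamini-Hochberg adjustment over all of it. Sex is male minus female F. occidentalis, species F. intonsa minus F. occidentalis females. Exact permutation tests used scipy 1.17.1. Folds of low genes are understated by the added 1. Proteins, called genes and the most abundant gene of each protein are named. Members and lists were chosen with earlier results of these data known, and the split of "acetyl-transferring" and ratios between genes after values were seen. The test was checked on simulated data with large changes planted in 200 genes, which does not show its power for smaller changes. Of all gene identifiers, 0 matched the RefSeq table, so names are the table's own. Same-numbered libraries did not deviate together, so the numbers were not used as pairs.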

Additional observations from a re-analysis of the deposited data

How the results depend on the processing

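Between the sexes 0 proteins were called under every alternative run, planned or added. Without a replicate the log2 fold changes ran from −0.90 to −0.37 (apolipophorin), −1.10 to 0.15 (hexamerin), 0.25 to 0.66 (melanotransferrin), −0.42 to −0.06 (ferritin light chain) and −0.16 to 0.13 (other ferritins). Signs turned under quantile normalization for ferritin light chain (0.054) and other ferritins (0.22). The latter also turned without female library 2 (0.032), male library 2 (0.00077) or male library 3 (0.13), with TPM rescaled to matched genes (0.062, chosen after seeing the data) and for its most abundant gene unsummed (0.61). Without a replicate the single genes TRINITY_DN38883_c0_g1 (−0.15 to 0.13) and TRINITY_DN39716_c0_g2 (−0.61 to 0.29) also turned. Proteins whose sexes did not overlap numbered 0, and 0 to 2 without a replicate. The 415 genes called over all became 271 with a pseudocount of 0.1, 116 without a filter, 207 with quantile normalization, 198 without trend and 18 to 285 without a replicate.

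Between the species 3 of 6 proteins were called, beside 85.4% of all entries tested with proteins summed. Of these proteins, ferritin heavy chain passed the filter through F. intonsa alone, and hexamerin through the F. occidentalis females, where it was high. The count was 1 without a filter, 5 with genes unsummed and 0 to 5 without a replicate. The 18127 genes called became 11047 with quantile normalization and 3346 to 16126 without a replicate. Leaving out an F. occidentalis library left 7802 to 7825 genes tested, since genes listed at 0 in F. intonsa then fail the filter. Without a replicate the log2 fold changes ran from −2.05 to 0.079 (apolipophorin), −2.41 to −1.42 (hexamerin), −2.01 to −0.29 (melanotransferrin), −3.72 to −2.10 (ferritin light chain), −4.07 to −1.77 (other ferritins) and 5.87 to 6.08 (ferritin heavy chain, 3 fits). Apolipophorin was at 0.66 with quantile normalization, 1.14 with TPM rescaled to matched genes and −3.88 unsummed. Hexamerin lost its call without a filter (−2.00, adjusted p = 0.0633), with quantile normalization (−0.073) and unsummed (−1.29). Melanotransferrin turned with quantile normalization (0.98) and was called from Swiss-Prot wording alone or unsummed (−2.01 each). Ferritin light chain lost its call without a filter (−2.94, adjusted p = 0.292), under the replicate block (−2.94, adjusted p = 0.0682) and with TPM rescaled to matched genes (−0.98), and turned from Swiss-Prot wording alone (3.18), which keeps only the whale-matched gene. Other ferritins were called with all 9 libraries in 1 fit (−2.77, adjusted p = 0.0306) and unsummed (−5.91), and were at −0.82 with TPM rescaled to matched genes (adjusted p = 0.257). Single genes turned with quantile normalization (TRINITY_DN39716_c0_g2, 0.44; TRINITY_DN39829_c0_g2, 0.76; TRINITY_DN46136_c0_g13, 1.31), without F. intonsa library 3 (the last, range −0.85 to 0.54) and with TPM rescaled to matched genes (the last, 0.54; TRINITY_DN38883_c0_g2, 0.64). The −3.88, −2.01 and 3.18 come from genes listed at 0 in each fitted library of 1 species, so the added 1 sets their size. The sizes for hexamerin (−4.12 with a pseudocount of 0.1) and ferritin heavy chain (8.67) rest on it too. Where no cause is given, the cause was not tested.

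Same-numbered libraries had deviations correlated at −0.03, 0.05 and −0.04 between the sexes and 0.03, 0.00016 and −0.06 between the species, and the replicate block changed the call of no protein other than ferritin light chain between the species. Unknown depth and 3 libraries per group limit all of these values.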
